A study of Homo sapiens with 6 samples.

Results

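The genes examined here are the spliceosome genes of HepG2, taken as the rows of the deposited gene table whose KEGG annotation lists the spliceosome pathway, after leaving out names that begin with HNRNP or HSPA. Of 29153 rows, 131 carried the annotation, 13 were left out by name and 118 remained. HepG2 is an established human liver cancer cell line. Cells were infected for 72 h with a lentivirus carrying a short hairpin RNA against the long noncoding RNA LINC01977 (sh-LINC01977, genotype labelled as a knockdown) or a control hairpin (sh-NC, genotype labelled as control), and 3 libraries of total RNA were sequenced in each group. The paper's methods describe puromycin selection of infected cells. A single hairpin and a single cell line were sequenced, so effects of the hairpin and of the target cannot be told apart. The labels do not say that libraries came from separate cultures, and p-values then measure only the spread between these libraries, which may be technical.

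The spliceosome removes introns from precursor messenger RNA. It is built anew on each intron from small nuclear ribonucleoproteins (snRNPs) named U1, U2, U4/U6 and U5, each a small RNA with a ring of Sm or LSm proteins and its own proteins. U1 marks the start of the intron, U2 binds its branch point, the U4/U6.U5 tri-snRNP joins, and RNA helicases with the Prp19 complex turn the assembly into the active enzyme. SR proteins guide the choice of exons, and the exon junction complex is left on the spliced message. The question of the comparison is whether the messages for these parts differed in level between sh-LINC01977 and sh-NC cells.

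The spliceosome genes differed little between the groups. In an edgeR quasi-likelihood fit, with p-values adjusted by Benjamini-Hochberg over the 13452 genes whose mean FPKM (fragments scaled to gene length and library size) reached 0.5, 12 of the 118 had an adjusted p under 0.05, which is 10.2%, where 15.1% of all tested genes did. All 118 passed the FPKM filter. Higher in sh-LINC01977 were 7 genes, ISY1, LSM8, RBM8A, U2SURP, WBP11, SF3B6 and SF3A3, beside 7.05% of all tested genes, and lower were 5, ISY1-RAB43, LSM5, DDX23, PRPF4 and SF3B3, beside 8.07%. LSM8, RBM8A and U2SURP kept an adjusted p under 0.05 in all 15 alternative analyses. ISY1 and ISY1-RAB43 moved in opposite directions, and the summed counts of their shared locus did not pass the test. In these bulk libraries a difference in the makeup of the cells and a difference in RNA per cell cannot be told apart.

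To show the promoter sequence of genes that moved, the 250 bases before the RefSeq start site (GRCh38.p14) are given for the 3 genes whose calls held in all alternatives and for LSM5 and PRPF4, which were lower. Each is written 5′ to 3′ on the gene's strand, and capitals mark CCGGAAG or its reverse complement CTTCCGG. This is a form of the site bound by ETS-family transcription factors, and other forms were not searched for. The windows are chr7:118183914-118184163 (plus strand) for LSM8, chr1:145927485-145927734 (minus) for RBM8A, chr3:143001320-143001569 (plus) for U2SURP, chr7:32495284-32495533 (minus) for LSM5 and chr9:113275408-113275657 (plus) for PRPF4. RefSeq and the deposited gene coordinates place some of these starts differently. U2SURP is listed from 142964497 and PRPF4 from 113275343, so their windows lie inside the listed genes, and those of LSM8 and RBM8A do so in part. LSM5 has 2 windows in the RefSeq table, of which the one next to the listed gene's end is shown.
LSM8: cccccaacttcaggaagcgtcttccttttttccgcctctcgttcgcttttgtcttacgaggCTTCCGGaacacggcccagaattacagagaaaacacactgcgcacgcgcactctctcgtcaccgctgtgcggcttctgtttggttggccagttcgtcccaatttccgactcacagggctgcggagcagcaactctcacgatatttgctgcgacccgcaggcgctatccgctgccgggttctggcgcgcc
RBM8A: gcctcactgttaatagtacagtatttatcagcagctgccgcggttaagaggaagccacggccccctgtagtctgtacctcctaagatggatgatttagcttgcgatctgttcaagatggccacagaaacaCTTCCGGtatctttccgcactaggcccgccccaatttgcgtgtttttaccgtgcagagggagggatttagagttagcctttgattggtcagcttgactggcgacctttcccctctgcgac
U2SURP: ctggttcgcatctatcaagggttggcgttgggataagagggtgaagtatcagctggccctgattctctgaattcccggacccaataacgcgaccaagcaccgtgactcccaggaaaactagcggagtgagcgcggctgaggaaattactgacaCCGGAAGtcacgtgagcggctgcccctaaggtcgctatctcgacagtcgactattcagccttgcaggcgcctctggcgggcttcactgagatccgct
LSM5: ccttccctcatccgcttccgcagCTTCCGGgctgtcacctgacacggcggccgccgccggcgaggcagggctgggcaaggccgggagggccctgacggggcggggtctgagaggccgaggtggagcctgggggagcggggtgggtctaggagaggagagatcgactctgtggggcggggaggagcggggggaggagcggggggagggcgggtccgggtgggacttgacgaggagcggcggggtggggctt
PRPF4: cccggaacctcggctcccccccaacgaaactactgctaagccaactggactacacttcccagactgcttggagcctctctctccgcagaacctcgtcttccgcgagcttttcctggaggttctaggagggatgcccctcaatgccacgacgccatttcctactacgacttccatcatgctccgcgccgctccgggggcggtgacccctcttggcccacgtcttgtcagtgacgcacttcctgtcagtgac
The motif begins 189 bases before the start in LSM8, 120 in RBM8A, 97 in U2SURP and 227 in LSM5. PRPF4 has no CCGGAAG on either strand in its window, which leaves other forms of the site unexamined.

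The ETS-type motif was frequent in front of spliceosome genes as a class. Of 118 genes, 102 matched an entry in the RefSeq table by symbol, with 123 windows, and 53 of these windows held CCGGAAG on either strand, which is 43.1%. The same 250 bases held it in 15.0% of 12935 windows of tested genes and in 8.52% of all 35116 windows in the table. Other motifs searched on both strands stood closer to tested genes. The CCAAT box (CCAAT) was in 35.8% of spliceosome windows and 33.5% of windows of tested genes, the GC box (GGGCGG) in 58.5% and 64.2%, and the TATA box (TATAAA) in 8.13% and 5.55%. Matches of different motifs can share end bases, windows of neighbouring genes can overlap, and the median GC content was 60.0% in spliceosome windows and 64.4% in those of tested genes.

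**Figure D1:**
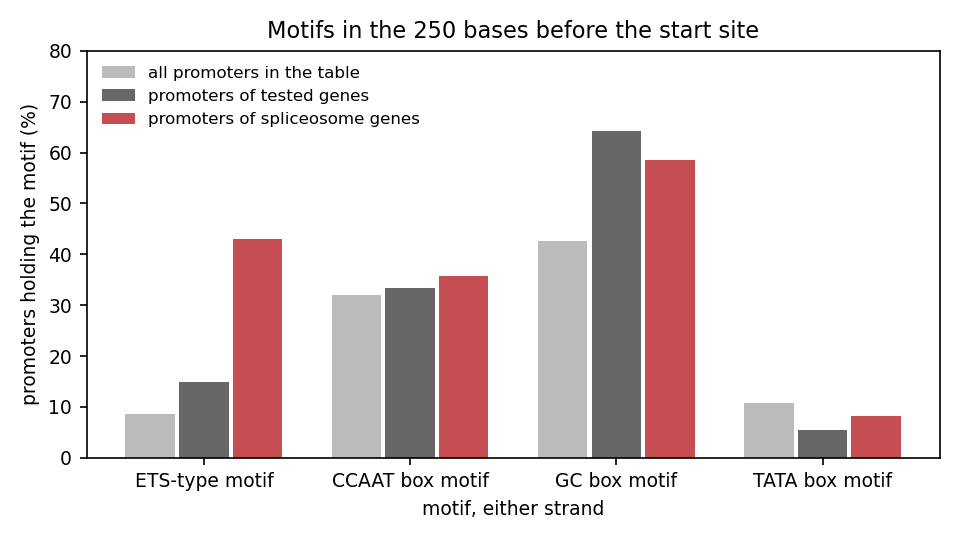
Percent of 250-base windows before RefSeq start sites that hold each of 4 motifs on either strand (y axis, percent; x axis, motif), for all 35116 windows, 12935 windows of tested genes and 123 windows of spliceosome genes. The ETS-type motif was in 43.1% of spliceosome windows and 15.0% of windows of tested genes. The other 3 motifs stood closer, with the GC box at 58.5% and 64.2% and the TATA box at 8.13% and 5.55%.

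By gene, 50 of the 102 with an entry held the motif. Among the 12 called genes, 10 had an entry and 8 of these held CCGGAAG, namely 6 of 6 higher genes and 2 of 4 lower genes. These include ISY1 among the higher and ISY1-RAB43 among the lower genes, so their shared locus counts in both directions. The 50 spliceosome genes with the motif had a median log2 fold change (sh-LINC01977 over sh-NC) of 0.038 and the 52 without it 0.012, beside 0.0044 in 1799 and 0.0038 in 7201 tested genes. The median sizes of change, taken without sign, were 0.090 in the spliceosome genes with the motif and 0.078 in those without it, beside 0.14 and 0.18 in the tested genes with and without it. A match to 7 letters is a description of the sequence and does not show binding.

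The size of change in the whole class was small. The median log2 fold change of the 118 genes was 0.028, with 68 above 0 and 50 below, against -0.0010 for all tested genes and -0.031 for the 3452 tested genes at 10 FPKM or more on average. Without regard to sign the median was 0.082, against 0.18 in all tested genes and 0.14 in those with at least 10 FPKM. A change under 0.1 was found in 67 spliceosome genes (56.8%) and in 29.9% of tested genes, whereas a change over 0.25 was found in 14 (11.9%) and 38.2%. Among tested genes with at least 10 FPKM these shares were 37.4% and 27.0%. A change over 0.5 was found for ISY1 and ISY1-RAB43 alone. The 95% interval of the log2 fold change lay within -0.5 to 0.5 for 103 of the 118 genes (87.3%). It did so for 51.1% of tested genes and for 75.8% of those with at least 10 FPKM. For those 103 spliceosome genes a change larger than that was outside the interval.

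**Figure D2:**
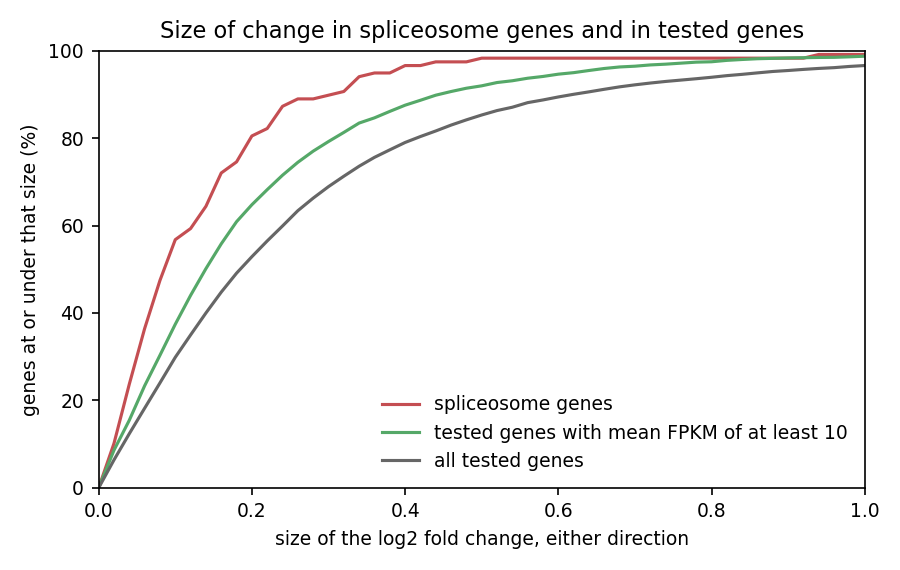
Percent of genes (y axis) whose log2 fold change is at or under a given size in either direction (x axis), for the 118 spliceosome genes, the 3452 tested genes at 10 FPKM or more and all 13452 tested genes. The spliceosome curve rises fastest, and at a size of 0.1 it stands at 56.8%, against 37.4% and 29.9%.

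The spliceosome genes were well expressed and varied little between libraries of a group. Their median mean FPKM was 17.3, with a range from 0.867 (PRPF40B) to 357 (SNRPB), against a median of 4.14 in all tested genes. The coefficient of variation between libraries of a group had a median of 4.81%, against 9.31% in all tested genes and 5.51% in those with at least 10 FPKM. It was over 20% in 4 members, LSM4, ISY1-RAB43, SNRPD2 and SNU13. Among tested genes with at least 10 FPKM, 21.8% had an adjusted p under 0.05, a larger share than over the whole table. By the thresholds of the study's methods, at least a 2-fold difference with P of 0.05 or less before adjustment, 1 spliceosome gene passed (ISY1-RAB43), beside 2.6% of all tested genes.

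The values of the libraries did not overlap between groups for 36 spliceosome genes (30.5%), 23 of them higher and 13 lower, where 37.1% of all tested genes did not overlap. The 118 genes together made up 1.44%, 1.49% and 1.46% of the counts in sh-NC and 1.52%, 1.55% and 1.57% in sh-LINC01977. On the CPM scale (counts scaled to library size after TMM correction) their sums were 14951, 15308 and 14893 in sh-NC and 15006, 15426 and 15205 in sh-LINC01977. The groups were apart in the share of counts and overlapped after TMM scaling, whose factors were 0.966 to 0.987 in sh-NC and 1.01 to 1.04 in sh-LINC01977. The split of calls moved with this scaling. With library totals in place of TMM it was 13 higher and 2 lower, and the median of all tested genes was then 0.065 against 0.093 for the spliceosome genes.

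The libraries held 49929024 to 60441515 counts each. LINC01977 itself had 4, 0 and 16 counts in sh-NC and 0, 0 and 4 in sh-LINC01977. Its log2 fold change was -2.12 (SE 1.96, adjusted p = 0.580 by edgeR in a fit of all genes), so its reduction was not detectable at this depth. The paper reports a check of knockdown by qRT-PCR in its stable HepG2 line, which is a measure apart from these counts. All 10 hepatocyte and HepG2 markers listed had a mean FPKM of at least 1, and their summed FPKM was 4447 to 4816 in sh-NC and 3131 to 3197 in sh-LINC01977. Of 10 mesenchymal markers 7 were in the table, 3 at a mean FPKM of at least 1, with sums of 20.1 to 20.3 and 20.8 to 25.9. Of 6 leukocyte markers 5 were in the table, with sums of 626 to 634 and 543 to 559 made up mostly by LYZ (lysozyme), while the defining marker PTPRC reached at most 0.0065. The part of these differences in the results on spliceosome genes was not tested.

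**Figure D3:**
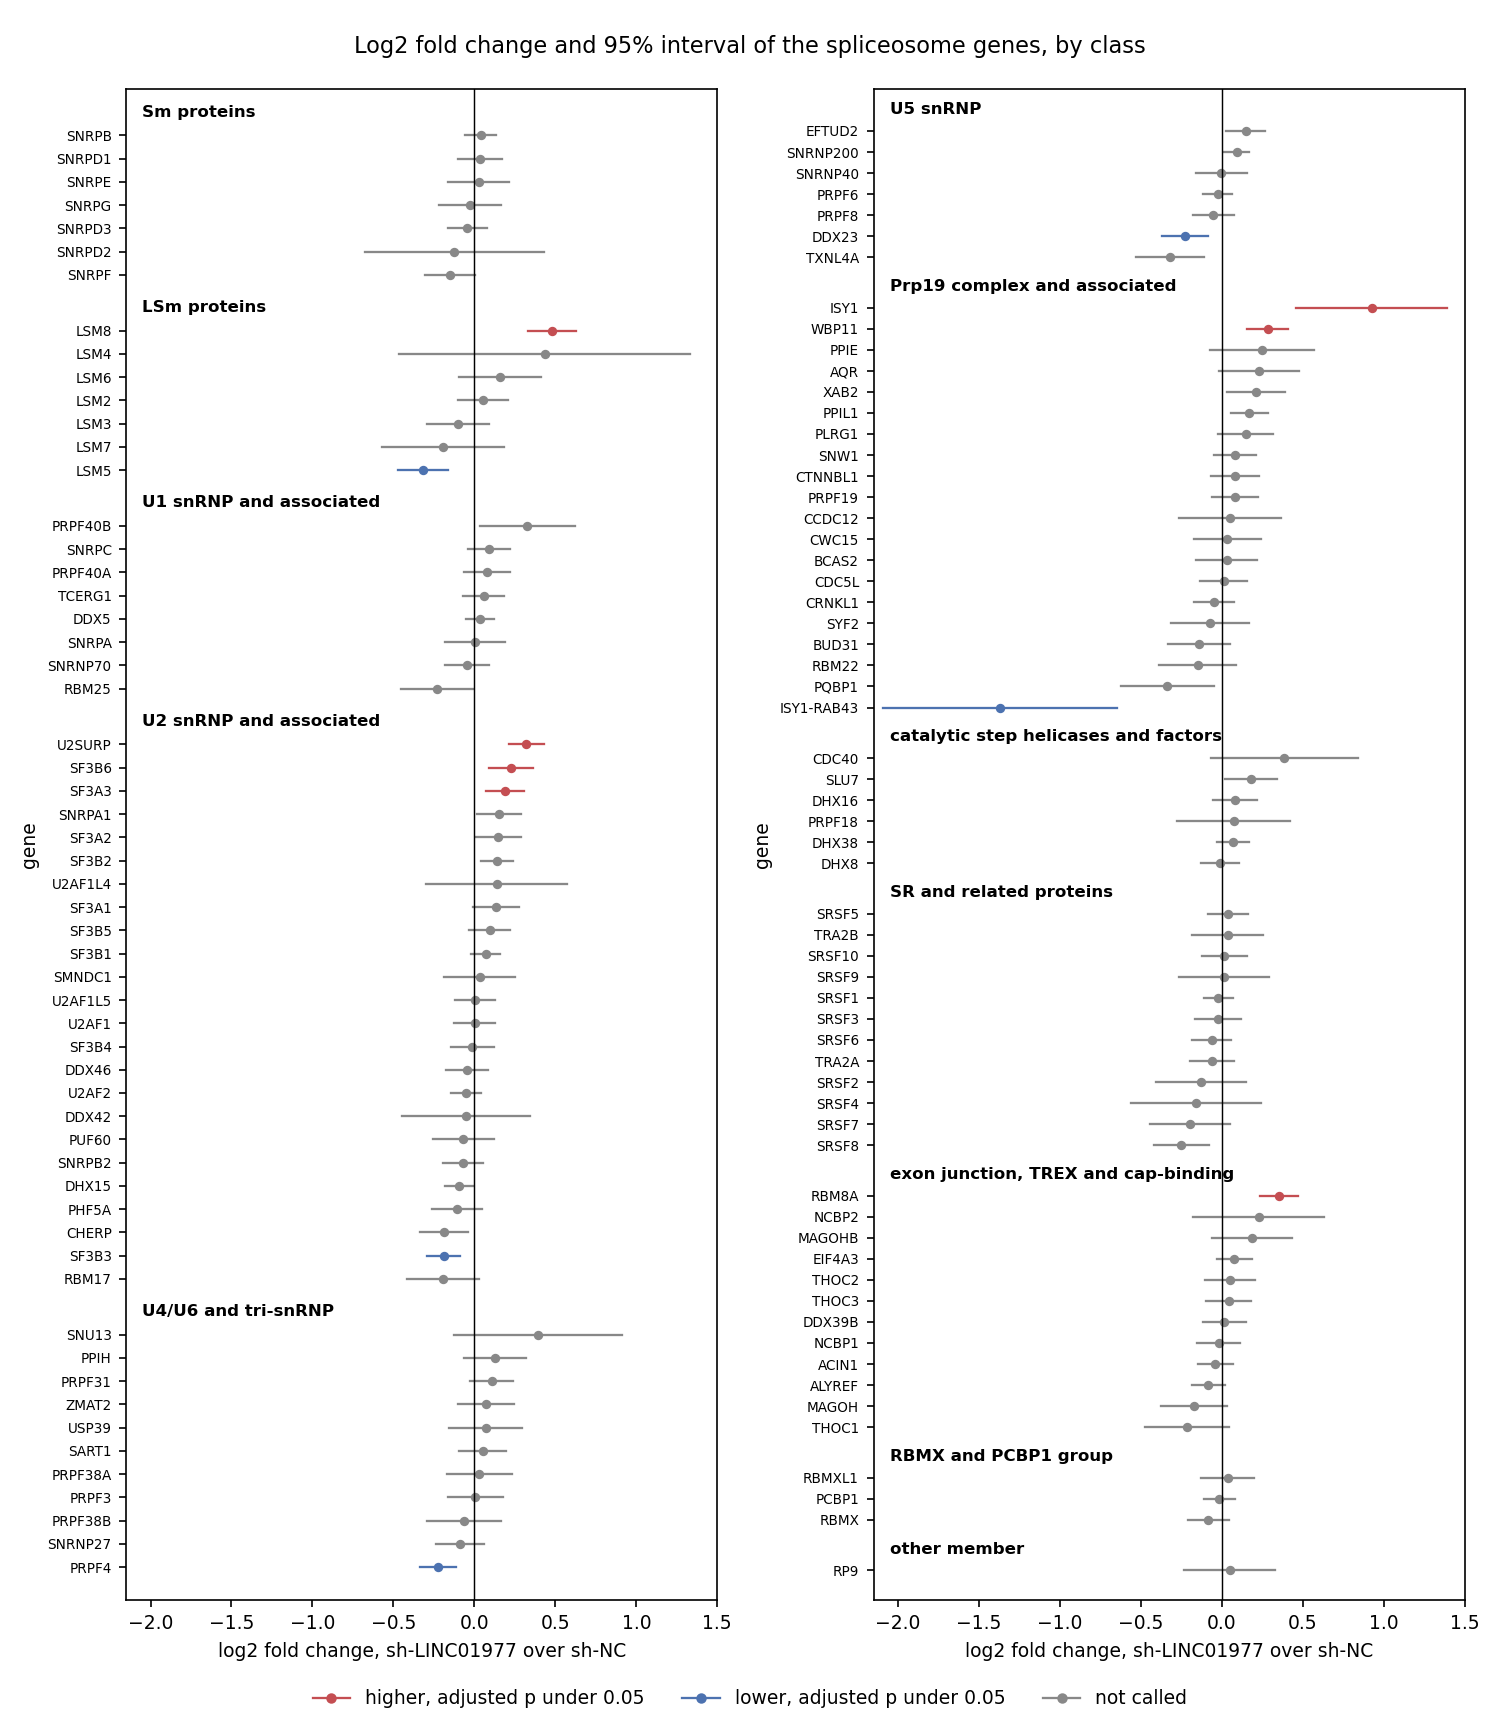
Log2 fold change of each of the 118 spliceosome genes (points; x axis, sh-LINC01977 over sh-NC) with its 95% interval from edgeR (lines), grouped by class (y axis, genes). Red marks the 7 genes called higher, blue the 5 called lower and grey the 106 not called, and 103 of the 118 intervals lie within -0.5 to 0.5.

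The Sm proteins form the ring around the U1, U2, U4 and U5 small nuclear RNAs. None of the 7 Sm genes was called by edgeR, by DESeq2 or by limma, and 0 had an unadjusted p under 0.05 by edgeR, where 30.5% of all tested genes did. Over all tested genes, DESeq2 called 21.1% and limma 14.9%. The log2 fold changes of the Sm genes ran from -0.15 (SNRPF) to 0.039 (SNRPB). SNRPB, which encodes the SmB protein and was the most highly expressed spliceosome gene, had 330, 346 and 358 FPKM in sh-NC and 359, 372 and 379 FPKM in sh-LINC01977. Its CPM values overlapped between groups, at 537, 555 and 572 against 553, 581 and 575, and the log2 fold change was 0.039 (SE 0.041, adjusted p = 0.570). SNRPD2 varied within groups, with 93.1, 157 and 87.2 CPM in sh-NC and 88.9, 110.3 and 110.6 CPM in sh-LINC01977. SNRPN, which encodes a close relative of SmB and is outside the pathway column, was lower, at 154, 154 and 156 CPM against 127, 129.6 and 128 CPM (log2 fold change -0.27, SE 0.040, adjusted p = 0.00688).

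The LSm proteins form the like ring on U6 small nuclear RNA, in which LSM8 is the subunit that sets the nuclear ring apart from the cytoplasmic one, where LSM1 takes its place. LSM8 (ENSG00000128534, chromosome 7, 118184032 to 118192824) had 25.2, 24.5 and 24.7 CPM in sh-NC and 35.4, 35.1 and 33.3 CPM in sh-LINC01977. All 3 knockdown libraries lay above all 3 controls, and the gap was larger than the spread within either group. The log2 fold change was 0.48 (SE 0.062, adjusted p = 0.00442), a fold of 1.40. LSM1, outside the pathway column, had a log2 fold change of 0.078 (SE 0.17, adjusted p = 0.793).

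LSM5, another subunit of the same ring (ENSG00000106355, chromosome 7, 32485332 to 32495283), moved the other way. It had 50.5, 48.2 and 47.1 CPM in sh-NC and 40.6, 39.7 and 36.7 CPM in sh-LINC01977, without overlap, and the log2 fold change was -0.32 (SE 0.064, adjusted p = 0.020). Its call did not hold in every fit with 1 library left out. The adjusted p was 0.070 without sh-NC library 1, 0.057 without sh-NC library 2, 0.059 without sh-LINC01977 library 2 and 0.064 without sh-LINC01977 library 3. Its log2 fold change was -0.35 to -0.28 in the fits with 1 library left out, which hold fewer samples. The other 5 LSm genes of the ring were not called, so edgeR called 28.6% of the 7 in the class, beside 15.1% of all tested genes. LSM7, the highest of them in FPKM at 46.7, had 103, 108 and 102 CPM in sh-NC and 68.4, 108.5 and 97.1 CPM in sh-LINC01977, so 1 library stood low. LSM4 had 52.4, 69.5 and 21.5 CPM in sh-NC and 61.0, 63.5 and 69.0 CPM in sh-LINC01977, and its 95% interval of -0.47 to 1.33 left its direction unresolved.

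U1 recognises the start of the intron. Of 8 genes of the U1 snRNP and its associated proteins, none was called by edgeR, DESeq2 or limma, and 2 had an unadjusted p under 0.05 by edgeR (PRPF40B and RBM25), beside 30.5% of all tested genes. SNRPC, the U1-C protein and the highest of the class at 97.8 FPKM, had 157, 145 and 145 CPM in sh-NC and 151, 162 and 162 CPM in sh-LINC01977, with overlap (log2 fold change 0.089, SE 0.054, adjusted p = 0.319).

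U2 and its partners recognise the branch point and the 3′ end of the intron. This class of 24 genes held 4 calls by edgeR (16.7%), 3 higher and 1 lower, beside 15.1% of all tested genes. U2SURP, which encodes an SR-related protein associated with the U2 snRNP (ENSG00000163714, chromosome 3, 142964497 to 143060546), had 147, 148 and 149.9 CPM in sh-NC and 182, 181 and 193 CPM in sh-LINC01977. The controls lay close together and each knockdown library was above them all. The log2 fold change was 0.32 (SE 0.045, adjusted p = 0.00595). Of its exonic bases, 6.93% are shared with other listed genes, and the sources used here do not state whether reads were counted by strand.

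The SF3A and SF3B complexes are the protein core of U2, and their subunits did not move together. SF3B6, the subunit that contacts the branch point region, had 90.7, 89.1 and 95.8 CPM in sh-NC and 108, 113 and 102 CPM in sh-LINC01977 (log2 fold change 0.23, SE 0.058, adjusted p = 0.0451). SF3A3 had 172, 162 and 166 CPM against 181, 193 and 196 CPM (0.19, SE 0.049, adjusted p = 0.0479). SF3B3 was lower, with 450.0, 468 and 443 CPM against 408, 403 and 383 CPM (-0.19, SE 0.042, adjusted p = 0.0293). Each of these 3 genes lost its call whichever library was left out, with adjusted p values from 0.059 to 0.126 for SF3B6, 0.052 to 0.135 for SF3A3 and 0.053 to 0.086 for SF3B3, so they lay near the threshold. SF3B2 (log2 fold change 0.14, adjusted p = 0.0654) did not pass by edgeR. DESeq2 called the same 4 genes of the class. The limma fit, on FPKM without TMM scaling, called 5 higher (SF3A3, SF3B2, SF3B6, SNRPA1 and U2SURP) and not SF3B3.

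SF3B1, the largest SF3B subunit and the target of splicing inhibitors, had 604, 626 and 616 CPM in sh-NC and 625, 657 and 655 CPM in sh-LINC01977, with a log2 fold change of 0.070 (SE 0.037, adjusted p = 0.257). SF3B5 was the third highest spliceosome gene, at a mean of 190.2 FPKM, with a log2 fold change of 0.095 (SE 0.052, adjusted p = 0.274). U2AF2, which binds the polypyrimidine tract, had 266, 265 and 272 CPM against 265, 252 and 258 CPM (-0.050, SE 0.039, adjusted p = 0.440). Its partner U2AF1, which reads the AG at the intron's end, was at 113, 113 and 115 CPM against 107, 117 and 117 CPM. U2AF1 and the listed gene U2AF1L5 are near-identical copies on chromosome 21 whose counts differed by 0.036% to 1.48% in a library, so reads may have been split between them. Added together their log2 fold change was 0.0023 (SE 0.048, adjusted p = 0.982).

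The tri-snRNP brings the catalytic parts. Of 11 genes of the U4/U6 snRNP and tri-snRNP, PRPF4 alone was called, by edgeR and DESeq2 but not by limma. By edgeR that is 9.09% of the class, beside 15.1% of all tested genes. PRPF4, a U4/U6 protein that works in a complex with PRPF3, had 73.7, 72.3 and 72.4 CPM in sh-NC and 61.4, 62.1 and 63.4 CPM in sh-LINC01977 (log2 fold change -0.22, SE 0.047, adjusted p = 0.0237). The groups were apart and each was tight. With 1 library left out in turn its adjusted p was 0.060 to 0.075, and 5.76% of its exonic bases are shared with CDC26. PRPF3 did not follow, with a log2 fold change of 0.0064 (SE 0.070, adjusted p = 0.964). ZMAT2, the highest of the class at 67.5 FPKM, had a log2 fold change of 0.070 (SE 0.073, adjusted p = 0.564). SNU13, which binds U4 RNA, spread widely, at 118, 183 and 108 CPM against 183, 148 and 205 CPM.

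U5 holds the exon ends during catalysis. DDX23, the helicase that helps U1 leave the intron, was the 1 call by edgeR among 7 genes (14.3%, beside 15.1% of all tested genes). It had 122, 129.5 and 136 CPM in sh-NC and 108, 107 and 115 CPM in sh-LINC01977 (log2 fold change -0.23, SE 0.059, adjusted p = 0.0462). With 1 library left out its adjusted p ran from 0.049, without sh-NC library 1, to 0.131, without sh-LINC01977 library 2. PRPF8, the central scaffold of the catalytic core, had 543, 529.5 and 502 CPM against 536, 485 and 497 CPM (-0.053, SE 0.053, adjusted p = 0.545). TXNL4A, a small U5 protein, had 65.1, 74.1 and 72.6 CPM against 60.6, 50.8 and 58.1 CPM, without overlap. It missed the threshold by edgeR (-0.32, SE 0.087, adjusted p = 0.0537) and was called lower by DESeq2. The helicase SNRNP200 and the GTPase EFTUD2 lay on the other side of 0, at 0.091 (SE 0.032, adjusted p = 0.111) and 0.15 (SE 0.050, adjusted p = 0.104), and limma called EFTUD2 higher and not DDX23. PRPF6 was the highest of the class at 73.9 FPKM, with a log2 fold change of -0.025 (SE 0.038, adjusted p = 0.696).

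The Prp19 complex and its associated proteins are needed to activate the spliceosome. Of 20 genes, 3 were called by edgeR (15.0%), beside 15.1% of all tested genes. DESeq2 and limma called the same 3 and PPIL1 (higher). WBP11 (ENSG00000084463, chromosome 12, 14784579 to 14803540), a splicing factor that binds PQBP1, had 129, 135 and 123 CPM in sh-NC and 159, 159.9 and 151 CPM in sh-LINC01977. The groups were apart, and the log2 fold change was 0.28 (SE 0.053, adjusted p = 0.0163). Its adjusted p was 0.053 without sh-NC library 1, 0.054 without sh-LINC01977 library 1 and 0.059 without sh-LINC01977 library 2. Its binding partner PQBP1 had 36.2, 40.9 and 48.9 CPM against 30.8, 33.3 and 35.7 CPM and was not called (-0.34, SE 0.12, adjusted p = 0.114). PRPF19, the ubiquitin ligase that names the complex, had a log2 fold change of 0.080 (SE 0.060, adjusted p = 0.409).

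**Figure D4:**
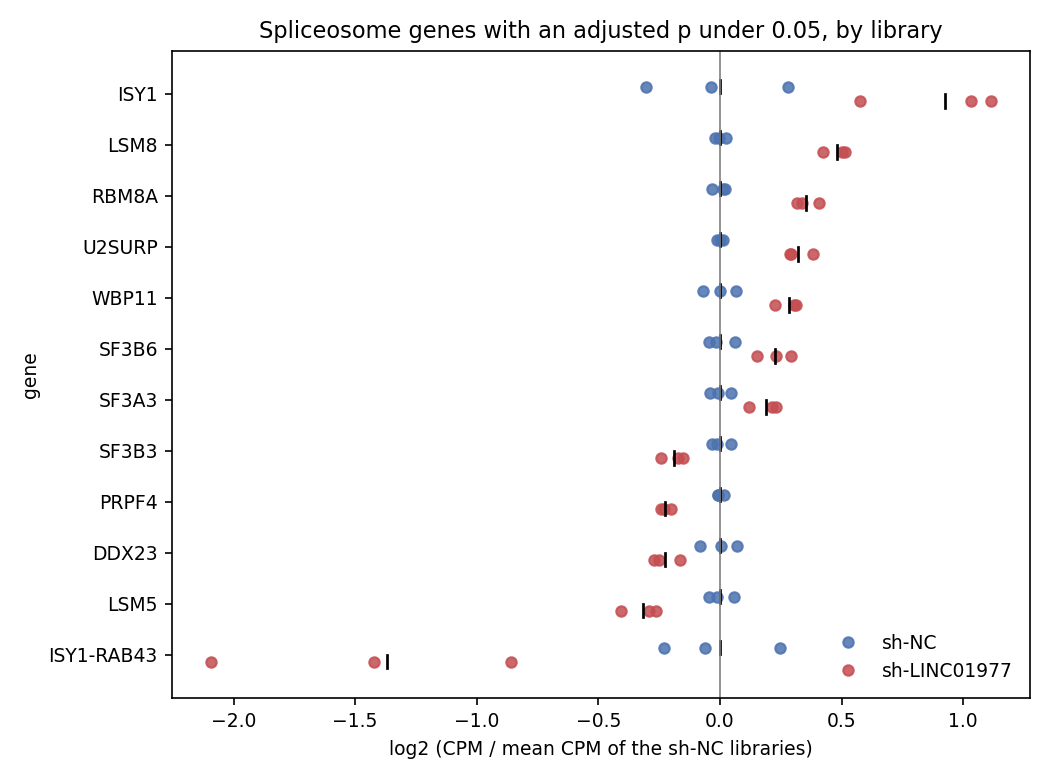
Level of each of the 12 called spliceosome genes in each library, as the log2 ratio of its CPM to the mean of the 3 sh-NC libraries (x axis; y axis, genes), with points for libraries and black marks at the ratio of group means. In every gene the 3 sh-LINC01977 points lie to 1 side of the 3 sh-NC points, and ISY1 and ISY1-RAB43 show the widest spread within a group.

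ISY1, a component of the active spliceosome, and ISY1-RAB43 carried the largest values, and they share sequence. ISY1 (ENSG00000240682, chromosome 3, 129127415 to 129161293, minus strand) had 10.7, 16.0 and 12.8 CPM in sh-NC and 19.6, 28.5 and 26.9 CPM in sh-LINC01977, a log2 fold change of 0.93 (SE 0.20, adjusted p = 0.0238). ISY1-RAB43 (ENSG00000261796, chromosome 3, 129087575 to 129161036) had 54.9, 39.4 and 44.3 CPM against 25.5, 10.8 and 17.2 CPM, a log2 fold change of -1.37 (SE 0.30, adjusted p = 0.0276). The groups of both genes were apart, in opposite directions.

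ISY1-RAB43 is a read-through gene. In the GENCODE 29 annotation its 1 transcript has 13 exons and 4868 bases, of which 912 are exonic in ISY1, 3956 are exonic in the downstream gene RAB43 and 0 are in neither. By bases, only a read that crosses from ISY1 into RAB43 therefore belongs to the read-through alone, and its other junctions were not compared. ISY1 has 4102 exonic bases, of which 912 are shared with ISY1-RAB43, so its other bases are not part of the read-through. That junction joins exon 11 (chr3:129130088-129130188) to exon 12 (chr3:129094986-129095169), both coding. Its sequence is given with the ISY1 side in lower case and the RAB43 side in capitals.
ISY1-RAB43 junction: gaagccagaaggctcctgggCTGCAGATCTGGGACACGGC

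RAB43 and the sum of the 3 genes did not pass the test. RAB43, a small GTPase, had 17.5, 25.4 and 31.4 CPM in sh-NC and 33.9, 36.2 and 36.6 CPM in sh-LINC01977 (log2 fold change 0.52, SE 0.20, adjusted p = 0.129). ISY1-RAB43 took 66.1%, 48.8% and 50.0% of the counts of the 3 genes in sh-NC and 32.3%, 14.4% and 21.4% in sh-LINC01977. The sum of the 3 was 4525, 3985 and 5211 counts against 4347, 4597 and 4158 counts, and its log2 fold change was -0.10 (SE 0.058, 95% interval -0.24 to 0.037, adjusted p = 0.289). How the authors' counting tool assigned reads to the 3 genes is not given in the sources used here, and a change in the read-through and a change in assignment cannot be told apart in these counts. Without ISY1 and ISY1-RAB43, 116 spliceosome genes held 6 higher and 4 lower calls (8.62%), beside 15.1% of all tested genes. The log2 fold changes of the 116 ran from -0.34 to 0.48.

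**Figure D5:**
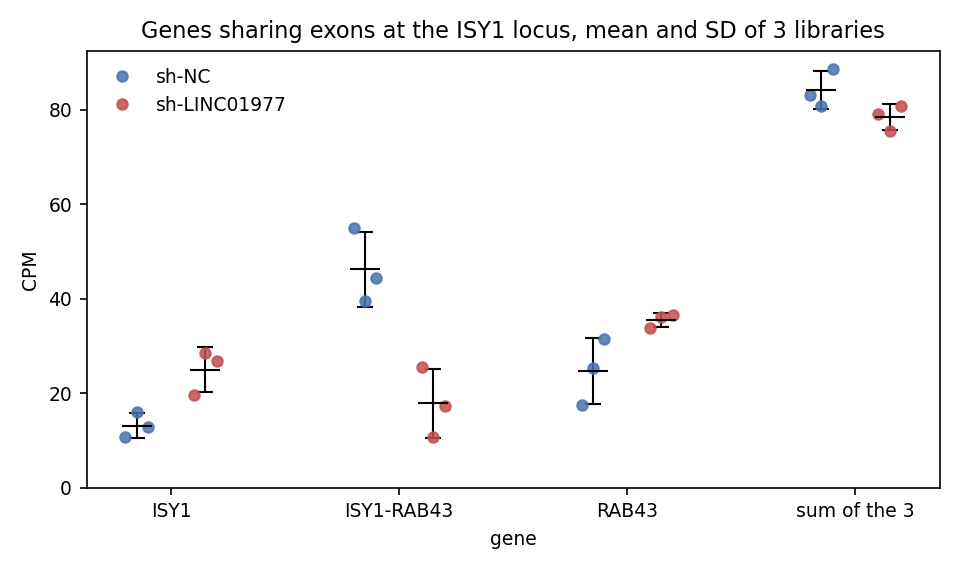
CPM (y axis) of ISY1, ISY1-RAB43, RAB43 and their sum (x axis) in each library, with points for libraries and black bars for the mean and SD of 3 libraries. The sh-LINC01977 points lie above the sh-NC points for ISY1 and below them for ISY1-RAB43, RAB43 was not called, and the summed values were 80.8 to 88.5 CPM in sh-NC and 75.5 to 80.8 CPM in sh-LINC01977.

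The catalytic step helicases and factors drive the 2 chemical reactions and the release of the product. None of 6 was called by edgeR, DESeq2 or limma, and 1, SLU7, had an unadjusted p under 0.05 by edgeR, beside 30.5% of all tested genes. DHX16, the helicase that readies the spliceosome for the first reaction and the highest of the class at 20.9 FPKM, had a log2 fold change of 0.081 (SE 0.057, adjusted p = 0.384).

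The SR proteins bind exons and guide splice site choice. None of 12 was called by edgeR or limma, 1 (SRSF8) was called lower by DESeq2, and 1 had an unadjusted p under 0.05 by edgeR, beside 30.5% of all tested genes. SRSF1, the highest of them at 73.4 FPKM, had 298, 312 and 303 CPM in sh-NC and 299, 297 and 303 CPM in sh-LINC01977, a log2 fold change of -0.023 (SE 0.037, adjusted p = 0.720). The 95% interval of SRSF1 was -0.11 to 0.066. Other listed genes share 60.7% of the exonic bases of SRSF1 and 36.7% of those of SRSF2, so reads may have been split. SRSF3 was at -0.023 (SE 0.059, adjusted p = 0.828). SRSF2 had 104, 107 and 107 CPM against 93.2, 115 and 82.7 CPM, tight in the controls and spread in the knockdown libraries (-0.13, SE 0.12, adjusted p = 0.502). SRSF8, with 32.3, 29.6 and 29.6 CPM against 26.5, 24.5 and 25.9 CPM, was apart between groups but not called (-0.25, SE 0.072, adjusted p = 0.0631).

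Of 12 genes of the exon junction complex, the TREX export complex and the cap-binding complex, 1 was called by edgeR (8.33%), beside 15.1% of all tested genes. RBM8A (ENSG00000265241, chromosome 1, 145917714 to 145927678), which encodes Y14 of the exon junction core, had 86.9, 87.3 and 84.2 CPM in sh-NC and 109, 114 and 107 CPM in sh-LINC01977. Every knockdown library stood above every control, and the log2 fold change was 0.35 (SE 0.049, adjusted p = 0.00563), a fold of 1.28. Some of its exonic bases are shared with other listed genes, between which reads may have been split. MAGOH, the partner of Y14, was not called, at 68.5, 61.3 and 62.3 CPM against 54.4, 63.1 and 53.1 CPM (-0.17, SE 0.086, adjusted p = 0.231), nor was its close copy MAGOHB (0.18, SE 0.10, adjusted p = 0.283). EIF4A3, the helicase that clamps the complex on RNA, had a log2 fold change of 0.076 (SE 0.045, adjusted p = 0.307). ALYREF, the TREX adaptor and the highest of the class at 56.1 FPKM, had a log2 fold change of -0.084 (SE 0.043, adjusted p = 0.237).

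The remaining genes were RBMX, RBMXL1, PCBP1 and RP9, and none was called by edgeR, DESeq2 or limma. PCBP1, a poly(C)-binding protein and the second highest gene at a mean of 228 FPKM, had a log2 fold change of -0.015 (SE 0.040, adjusted p = 0.835). Of its exonic bases, 52.2% are shared with PCBP1-AS1, so reads may have been split. RP9 had a log2 fold change of 0.047 (SE 0.12, adjusted p = 0.825). Of the 10 tested pathway rows left out by name, 0 were called higher and 1 was called lower by edgeR, beside 15.1% of all tested genes. The log2 fold changes of these 10 ran from -0.37 to 0.043.

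Splicing genes outside the pathway column gave a like picture. Of 54 tested genes for SR protein kinases, the minor spliceosome, snRNP assembly and splicing regulators, 1 was called higher and 2 lower (5.56%). The share of all tested genes was 15.1%, and all 3 edgeR calls were among the 22 splicing regulators (13.6%). MBNL1, a regulator of alternative splicing, had 38.4, 33.9 and 21.3 CPM in sh-NC and 56.6, 57.2 and 63.3 CPM in sh-LINC01977 (log2 fold change 0.92, SE 0.21, adjusted p = 0.0291). RALY was at -0.43 (SE 0.080, adjusted p = 0.0159) and CELF1 at -0.28 (SE 0.049, adjusted p = 0.0126). These 3 and KHDRBS1 (higher) were called by both DESeq2 and limma, which called 21.1% and 14.9% of all tested genes. By edgeR none of the 6 SR protein kinases, 9 tested minor spliceosome genes and 17 snRNP assembly genes was called, and 1, 0 and 1 of them had an unadjusted p under 0.05, beside 30.5% of all tested genes. DESeq2 and limma each called 1 assembly gene, SNUPN, higher and no kinase or minor spliceosome gene. RBM39 is an SR-like splicing factor that was studied as a partner of LINC01977. It had 306, 320 and 338 CPM in sh-NC and 308, 318 and 281 CPM in sh-LINC01977, with overlap (-0.089, SE 0.062, adjusted p = 0.381). Among 34 tested genes that belong to the classes above by role but not by the pathway column, 8.82% were called, beside 15.1% of all tested genes. IK was higher (0.22, SE 0.053, adjusted p = 0.0339), and SNRPN and PCBP2 were lower, PCBP2 by a log2 fold change of -0.31 (SE 0.054, adjusted p = 0.0130).

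How far the calls hold varied by gene. Of the 5 lower genes, DDX23, PRPF4 and SF3B3 lost their calls with library totals in place of TMM (log2 fold changes -0.16, -0.16 and -0.12, adjusted p = 0.154, 0.080 and 0.086) and with limma on FPKM at each pseudocount, while ISY1-RAB43 and LSM5 kept theirs in these fits. With each of the 6 libraries left out in turn, the number of higher calls was 3, 6 and 5 without sh-NC libraries 1, 2 and 3 and 5, 3 and 4 without sh-LINC01977 libraries 1, 2 and 3. The number of lower calls was 1, 0 and 2, and 2, 1 and 0. LSM8, RBM8A and U2SURP kept their calls in all 6 of these fits, with adjusted p values of at most 0.022, 0.023 and 0.027. WBP11 kept its call in 3 of 6, ISY1, ISY1-RAB43 and LSM5 in 2, DDX23 in 1, and SF3B6, SF3A3, PRPF4 and SF3B3 in 0. ISY1 had an adjusted p of 0.066 without sh-NC library 1, 0.073 without sh-NC library 3, 0.078 without sh-LINC01977 library 2 and 0.073 without library 3, and ISY1-RAB43 had 0.082, 0.053 and 0.065 without sh-NC libraries 1, 2 and 3 and 0.084 without sh-LINC01977 library 3.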

How the data were processed

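RNA of HepG2 cells was measured in 6 libraries, of which 3 carried the control hairpin and 3 the LINC01977 hairpin, grouped and numbered from the labels. The authors deposited 1 table with whole-number counts per gene, not normalized, and with FPKM values, which scale fragments to gene length and library size. The submitters' processing notes name bcl2fastq 2.0, HISAT2, StringTie, DESeq2, limma and the build hg38, and the counting tool, its strand setting and the annotation are not given in the sources used here.

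Tests on the counts used edgeR 4.0.16 (quasi-likelihood fit, TMM scaling, Benjamini-Hochberg over all tested genes) in R 4.3.3, over 13452 genes whose mean FPKM reached 0.5. CPM are counts scaled to the library size after TMM correction. The SE is the absolute log2 fold change divided by the square root of F. A fold is the fitted linear change. Class lists followed known roles. The members and lists were chosen with earlier results of these data known. The genes named are the called genes without overlap between groups (up to 12 in each direction), the gene with the highest mean FPKM of each class, 8 genes named whatever their values (SF3B1, U2AF1, SRSF2, U2AF2, PRPF8, SRSF1, SRSF3 and SNRPB), RBM39, and called genes of the outside lists. Other genes named were chosen after their values were seen.

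Shared exons and the junction were read from GENCODE 29 on GRCh38, and promoters from RefSeq (GRCh38.p14). The share of RBM8A exonic bases held in common with other genes is not reported here. Alternatives were library totals, RLE scaling, other filters, DESeq2 1.42.0, limma 3.58.1 on log2(FPKM + 0.1, 1 or 0.01), a replicate block and leaving out each library. Summing the ISY1 locus or the U2AF1 copies was chosen after seeing the data. The edgeR steps were tested on simulated data. Intervals cover the spread between libraries only.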

Additional observations from a re-analysis of the deposited data

How the results depend on the processing

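Higher calls among the spliceosome genes numbered 13 with library totals and 11 with limma at each of 3 pseudocounts, and lower calls numbered 2 in each of these, with a median log2 fold change of 0.093 with library totals and of 0.088, 0.083 and 0.089 with limma at pseudocounts of 0.1, 1 and 0.01. The median of all tested genes moved to 0.065, 0.063, 0.049 and 0.065 in these 4. Of the spliceosome genes, 12.7% were called with library totals and 11.0% with limma, beside 16.5% and 14.8% to 15.0% of all tested genes. Without any filter 5 were higher and 4 lower (7.63%), beside 5.36% of all genes in that fit, a share below that of the spliceosome genes. DESeq2 gave 8 and 7 (12.7%), beside 21.1% of all tested genes. The fit with the replicate block gave 5 higher and 3 lower calls (6.78%), beside 10.3% of all tested genes. The replicate numbers were not taken to pair the libraries, because deviations of same-numbered libraries correlated at -0.029, 0.017 and 0.055. Leaving out 1 library gave 3 to 6 higher calls, 0 to 2 lower calls, 1 to 2 genes past 2-fold and medians of -0.00024 to 0.050. With 1 library left out, 3.39% to 5.93% of the spliceosome genes were called, beside 8.74% to 10.4% of all tested genes. Each such fit holds fewer samples, and the cause was otherwise not tested.

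The direction of ISY1 reversed to -0.10 when the locus was summed. Other reversals concerned genes near 0 that were not called. With library totals, and then limma at pseudocounts of 0.1, 1 and 0.01, the log2 fold change of PRPF6 was 0.040, 0.039, 0.039 and 0.039, of SRSF1 0.043, 0.041, 0.041 and 0.041, of PCBP1 0.050, 0.049, 0.049 and 0.049, of U2AF2 0.016, 0.014, 0.014 and 0.014, of PRPF8 0.013, 0.011, 0.010 and 0.011, and of SRSF3 0.043, 0.038, 0.037 and 0.038. U2AF1 was at -0.00027 with RLE scaling, -0.012 without a filter and -0.00029 with DESeq2. With 1 library left out, ZMAT2 ran from -0.0010 to 0.11, PCBP1 from -0.040 to 0.0036, U2AF1 from -0.021 to 0.043 and SRSF3 from -0.057 to 0.037. LSM8, RBM8A and U2SURP kept their calls in all 15 alternatives, with log2 fold changes of 0.43 to 0.55, 0.33 to 0.42 and 0.29 to 0.39.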
